A study of Homo sapiens with 4 samples.

Results

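The genes described here are those whose symbols follow the naming of the cytosolic and mitochondrial chaperones, their co-chaperones and the heat shock factors. Symbols beginning HSP or DNAJ and those of the chaperonin, prefoldin and BAG genes were taken, with HSF1, HSF2, TCP1, STIP1, AHSA1 and TRAP1. Of 11597 listed genes 83 matched, and 70 remained after 7 chaperones of the endoplasmic reticulum, 4 pseudogene copies and the coding genes HSPBP1 and HSPBAP1, whose names also end in P and a number, were left out. TCP1, STIP1 and TRAP1 end so too but are named by the rule and were kept. Of the 70 genes 67 are protein coding. The others are DNAJC9-AS1, an antisense RNA, and the pseudogenes HSP90AB3P and HSP90B2P. HSPG2 matches by its letters but codes for perlecan, a matrix proteoglycan and not a chaperone.

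Molecular chaperones bind proteins that are unfolded or partly folded and help them to reach, or to keep, their active shape. In the cytosol the HSP70 proteins take up nascent and damaged chains under the control of J-domain proteins, which start their ATP cycle, and of nucleotide exchange factors, which end it. Prefoldin and the ring-shaped chaperonin TRiC fold actin, tubulin and other substrates, HSP90 matures kinases and receptors, and mitochondria hold their own HSP70, HSP90 and chaperonin. The transcription factor HSF1 raises many of these genes in heat and other proteotoxic stress.

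The libraries came from the human line MOLM13, grown from an acute myeloid leukaemia, with 2 carrying a lentiviral BTG2 cDNA (labelled BTG2 OE) and 2 an empty vector (labelled WT). BTG2 is an adaptor that brings the CCR4-NOT deadenylase to messenger RNA, and the study asked about its role in mRNA stability. Both groups were of the same line, were infected in the same way and were collected after 3 days. The vector expresses puromycin resistance and ZsGreen from an EF1α promoter. By the labels of both groups, infection used a spin of 60 minutes at 32 °C and 1500 RCF with 5 µg/mL polybrene, and serum was at 10%. The labels name no selection or sorting, so the share of cells that carried the vector is unknown. The values are a mean normalized count per gene over the libraries, made by the authors, their log2 fold change of BTG2 over empty vector and its standard error (SE). No value of a single library was analysed here, and so the depth of each library is unknown and how many libraries showed a direction cannot be given. In such bulk RNA, fewer cells with a transcript and less of it per cell cannot be told apart. BTG2 itself stood at 5.01 (SE 0.09) on that log2 scale in the authors' deposited table. Of 11 markers of myeloid leukaemia 10 were listed, at mean counts from 104 to 6277, and of 17 markers of other lineages PAX5 alone was, at 53.1.

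Most chaperone genes had small fold changes, and the few that passed the test went both ways. HSPA8, HSPB1 and DNAJB6 fell and PFDN5, BAG1, DNAJC2 and HSP90AA1 rose. By the authors' deposited table, 7 of 70 (10.0%) had an adjusted p under 0.05, against 8.11% of all listed genes. The 4 higher genes made up 5.71% of the 70 against 3.64% of all genes, and the 3 lower ones 4.29% against 4.47%. These shares lie near those of all genes. At a limit of 0.01 HSP90AA1 and DNAJC2 were no longer called, and 0 of the 7 passed a test against an absolute change of 0.25 on the log2 scale. The median log2 fold change was -0.06 over the 70 genes, with the middle of the distribution, between its quartiles, from -0.16 to 0.07, and 0.00 over all listed genes, with quartiles of -0.16 and 0.19.

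Chaperone genes were more abundant than most listed genes, and their SEs were smaller. Their mean counts had a median of 398 against 151 for all genes, and their SEs a median of 0.13 against 0.20. The median mean count of all genes was reached by 48 chaperone genes, of which 7 (14.6%) passed the authors' test, against 13.6% of all genes of that level. Before adjustment 19 of the 70 (27.1%) had a p under 0.05, against 17.6% of all genes. All 19 lay among the 48 abundant ones, where they made up 39.6% against 26.7%. Of these 19 genes 6 were higher and 13 lower, where among all abundant genes with such a p 647 were higher and 902 lower. In all, 43 of the 70 fold changes were negative (61.4%), against 49.9% of all genes, and among the 48 abundant genes 32 were (66.7%), against 55.7%. The median of these 48 was -0.09, against -0.03 for all abundant genes. No test was made of these differences, since the genes were chosen with earlier results known.

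For 42 of the 70 genes (60.0%) the 95% interval, from the deposited SE, lay wholly within 0.5 of 0 on the log2 scale, against 40.4% of all listed genes. For 13 genes (18.6%) it lay within 0.25, against 8.36%. The gap was smaller at like counts, where 85.4% of the 48 abundant chaperone genes and 74.2% of all abundant genes had intervals within 0.5. DNAJC27, which carries a J domain on a small GTPase, had the widest interval, with a mean count of 9.68 and an SE of 2.31 in the authors' deposited table.

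**Figure D1:**
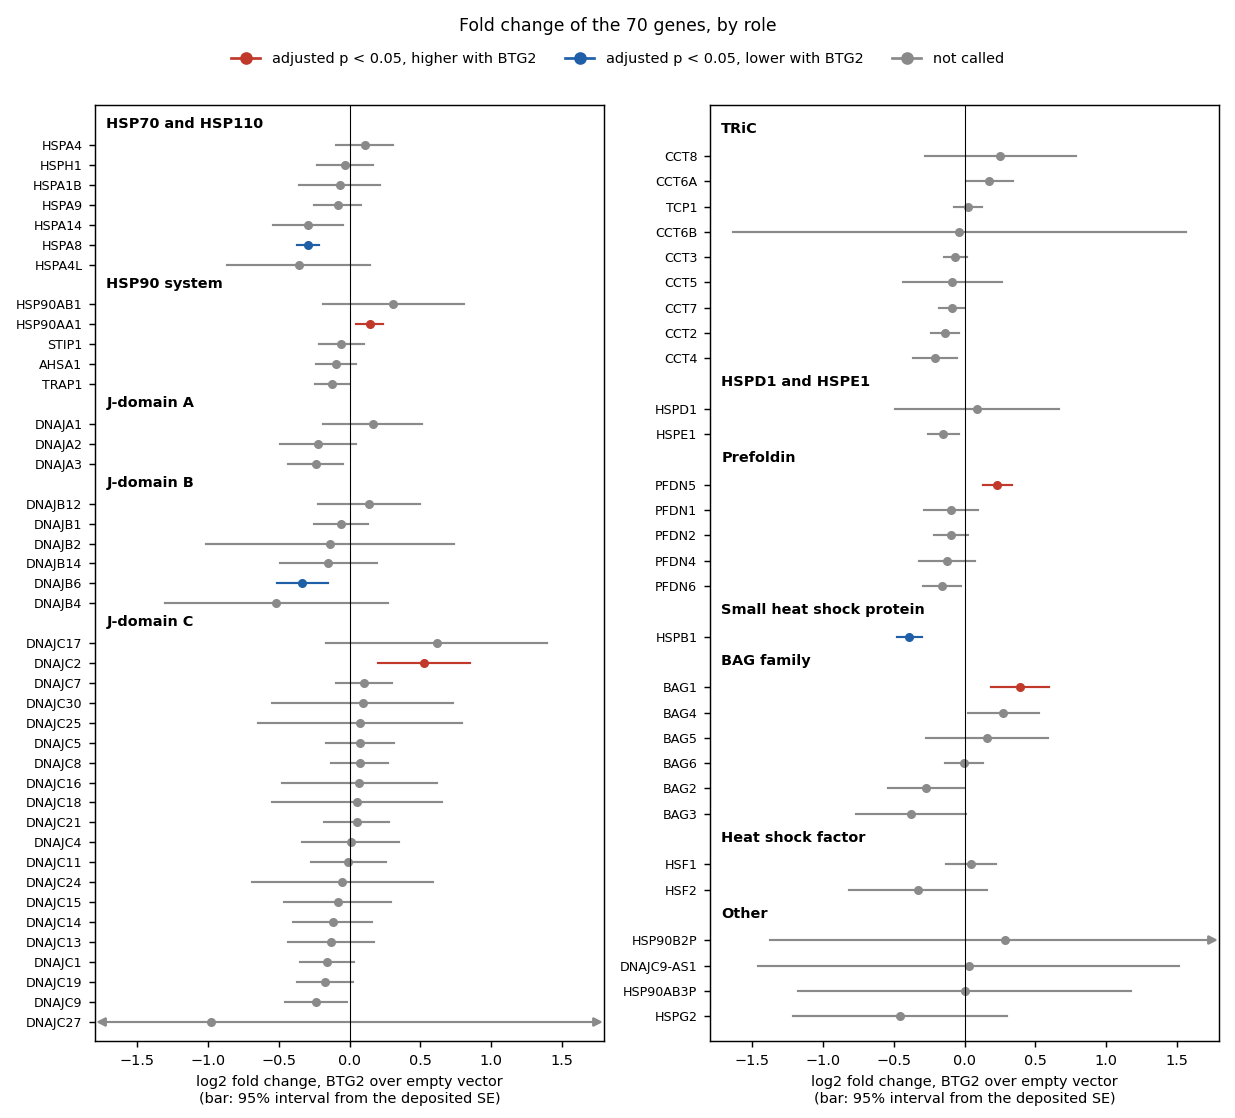
The log2 fold change (x axis, BTG2 over empty vector) of each of the 70 genes, in rows by role; points are the authors' values, bars the 95% interval from the deposited SE, arrows intervals that leave the axis, and colours the call at an adjusted p under 0.05. The 3 lower genes HSPA8, DNAJB6 and HSPB1 and the 4 higher genes PFDN5, BAG1, DNAJC2 and HSP90AA1 each have an interval on 1 side of 0.

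**Figure D2:**
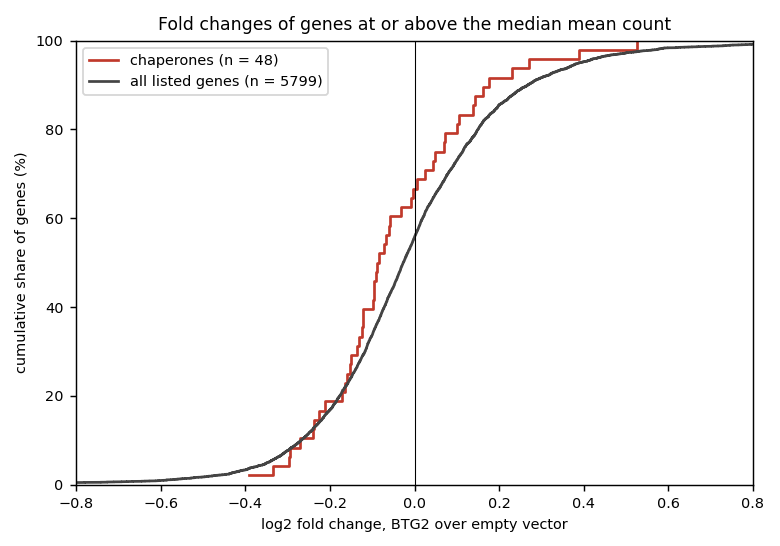
The cumulative share (y axis, %) of genes up to each log2 fold change (x axis), for the 48 chaperone genes and all 5799 listed genes that reach the median mean count. The chaperone curve lies above that of all genes around 0, where 66.7% of chaperones and 55.7% of all genes are negative.

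The clearest falls were those of HSPB1 and HSPA8, which also had the highest mean counts of the 70 genes. HSPB1, the small heat shock protein HSP27 that holds unfolded proteins and stabilises actin, had a mean count of 6018 and a log2 fold change of -0.39 (SE 0.05, adjusted p = 1.61e-15) by the authors' deposited table. This is a change of -23.7%, with a 95% interval from -28.3% to -18.9%. HSPA8, the constitutive HSP70 known as HSC70, had a mean count of 15203 and a log2 fold change of -0.30 (SE 0.04, adjusted p = 4.58e-12) by the authors' deposited table, or -18.6% (-22.8% to -14.1%). DNAJB6, a J-domain protein known for keeping polyglutamine proteins from aggregating, stood at -0.34 (SE 0.09, adjusted p = 0.00560) with a mean count of 766 in the authors' deposited table. Its change was -20.7%, from -30.0% to -10.2%. All of these changes are smaller than 1.5-fold. On hg38, GENCODE release 29 places HSPB1 on chromosome 7 from 76302544 to 76304295 (plus strand), HSPA8 on chromosome 11 from 123057489 to 123063230 (minus strand) and DNAJB6 on chromosome 7 from 157335381 to 157417439 (plus strand).

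In the 250 bases before the RefSeq start, each of these 3 genes held a match to a short form of the heat shock element, which HSF1 binds. Such a match occurred in 11.7% of all promoters. HSPB1 held a single one, without the longer run described below for HSPA8 and DNAJB6. The search used GAANNTTC and TTCNNGAA, each of which reads the same on both strands, and the elements may overlap. The windows below are RefSeq sequences of GRCh38.p14, written 5′ to 3′ on the strand of the gene, with the elements in capitals. They are the windows of the called genes that held an element, picked after the calls were known. Whether the elements relate to the falls was not tested.
HSPB1 (chr7:76302423-76302672, plus strand): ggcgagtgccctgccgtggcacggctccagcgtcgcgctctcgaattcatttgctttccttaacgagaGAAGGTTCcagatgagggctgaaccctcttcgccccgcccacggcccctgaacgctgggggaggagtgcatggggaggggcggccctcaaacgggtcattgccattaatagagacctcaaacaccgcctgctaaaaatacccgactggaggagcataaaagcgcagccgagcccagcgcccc
HSPA8 (chr11:123062137-123062386, minus strand): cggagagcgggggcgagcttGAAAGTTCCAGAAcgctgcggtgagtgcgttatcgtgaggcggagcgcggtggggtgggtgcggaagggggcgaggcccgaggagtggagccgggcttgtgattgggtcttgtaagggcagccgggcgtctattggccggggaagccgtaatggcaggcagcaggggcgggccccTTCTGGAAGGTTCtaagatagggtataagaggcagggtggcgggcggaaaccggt
DNAJB6 (chr7:157336754-157337003, plus strand): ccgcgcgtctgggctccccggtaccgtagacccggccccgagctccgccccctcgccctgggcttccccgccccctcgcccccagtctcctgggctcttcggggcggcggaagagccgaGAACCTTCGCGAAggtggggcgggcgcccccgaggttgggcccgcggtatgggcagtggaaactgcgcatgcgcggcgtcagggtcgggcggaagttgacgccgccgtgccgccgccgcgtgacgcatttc

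The RefSeq starts of all 3 genes lie inside the GENCODE spans given above. The windows of HSPA8 and DNAJB6 lie wholly inside those spans and that of HSPB1 in part. In HSPA8 the capitals form 2 runs, which begin 230 and 55 bases before the start, each of 2 overlapping elements with 3 alternating units. DNAJB6 has 1 such run, which begins 131 bases before its start, and HSPB1 a single element at 182 bases. Among 61 of the 70 genes with a promoter in the RefSeq table, 10 (16.4%) held an element, against 11.7% of all 27305 promoters and 8.71% of the 9026 promoters of listed genes. The run of 3 units occurred in 2 of the 61 (3.28%), which were HSPA8 and DNAJB6, and in 0.439% of all promoters. Among 19 promoters of the textbook HSF1 targets described below, 7 held an element and 4 the run of 3 units. The other 2 with the run are not among the 70 genes and did not pass the test. HSPA1B, DNAJA1, BAG2, PFDN6, TCP1, CCT6B and DNAJC15 held single elements and did not pass the test. The windows of the 4 genes that rose held no element, nor did those of the textbook targets DNAJB1, HSPH1 and BAG3. Only 1 window a gene was searched. That of HSP90AA1, from 102139750 to 102139999, lies beyond the upper end of its GENCODE span (102139699). Starts inside that span were not searched. An element in such a window is a description of the sequence, and binding of HSF1 was not measured.

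The rest of the HSP70 family, to which HSPA8 belongs, did not pass the test. By the authors' deposited table, 6 of its 7 measured genes had negative fold changes, with a median of -0.08. HSPA14, which works on the ribosome, stood at -0.30 (SE 0.12, adjusted p = 0.145), the same fold change as HSPA8 with a wider SE, in the authors' deposited table. HSPA4L, an HSP110 protein that acts as an exchange factor, had -0.36 (SE 0.26) and its relatives HSPA4 and HSPH1 had 0.11 (SE 0.10) and -0.03 (SE 0.10) by the authors' deposited table. The mitochondrial HSP70 gene HSPA9 stood at -0.08 (SE 0.08) by the authors' deposited table. HSPA1B, the stress-inducible HSP70, had a mean count of 228 and a log2 fold change of -0.07 (SE 0.15) by the authors' deposited table. Its transcript matches that of HSPA1A at 98.6% over 2152 bases, so that reads of the 2 genes are hard to tell apart, and HSPA1A was not analysed here.

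J-domain genes were the largest class, with 29 members, of which DNAJC2 rose and DNAJB6 fell. DNAJC2 codes for the J-domain protein that docks on ribosomes beside HSPA14. It had a mean count of 192 and a log2 fold change of 0.53 (SE 0.17, adjusted p = 0.0233) by the authors' deposited table, or 44.0% with an interval from 15.0% to 80.4%. Its partner HSPA14 had a fold change of the other sign, but did not pass, and the difference between the partners was not tested. DNAJC2 (chromosome 7, 103312474 to 103344873, minus strand) overlaps PMPCB and PSMC2 on the other strand. Those had log2 fold changes of -0.23 (SE 0.11) and 0.09 (SE 0.20). The sources used here do not say whether reads were counted by strand. This limit is wider, as 31 of the 70 genes overlap a listed gene, among them 2 of the 7 called. DNAJB1, TRAP1 and BAG6, not called, overlap genes on the other strand that passed the authors' test. These were TECR (mean count 2427, log2 fold change -0.36, SE 0.06), DNASE1 (9.00, 6.51, SE 1.65) and APOM (17.6, 7.47, SE 1.53).

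Of the 3 class A genes 0 passed the authors' test and 1 had an unadjusted p under 0.05, DNAJA3, which serves in mitochondria, at -0.24 (SE 0.10) by the authors' deposited table. DNAJA2 stood at -0.23 (SE 0.14) and DNAJA1 at 0.16 (SE 0.18) by the authors' deposited table. In class B, 5 of 6 fold changes were negative, with a median of -0.15. DNAJB1, the main stress-inducible partner of HSP70, had -0.06 (SE 0.10) and DNAJB4, at a mean count of 31.4, had -0.52 (SE 0.40) by the authors' deposited table. DNAJB14 and DNAJB12, both in the membrane of the endoplasmic reticulum, stood at -0.15 (SE 0.17) and 0.14 (SE 0.18) by the authors' deposited table. DNAJB2, a neuronal J-domain protein, had -0.14 (SE 0.45) at a mean count of 32.2 by the authors' deposited table. The intervals of these 3 genes spanned 0.

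The 20 class C genes were evenly spread around 0, with 11 positive and 9 negative fold changes and a median of 0.03. After DNAJC2 the histone chaperone DNAJC9 had the largest test statistic, at -0.24 (SE 0.11, adjusted p = 0.221) by the authors' deposited table. DNAJC19, of the mitochondrial import motor, stood at -0.17 (SE 0.10) and DNAJC1, of the endoplasmic reticulum membrane, at -0.16 (SE 0.10) by the authors' deposited table. DNAJC7, a co-chaperone with TPR repeats and the most abundant J-domain gene at a mean count of 1225, had 0.10 (SE 0.10) by the authors' deposited table. DNAJC17, a splicing factor, reached 0.61 but with an SE of 0.40 at a mean count of 38.8 in the authors' deposited table. The endosomal DNAJC13 (-0.13), the vesicle protein DNAJC5 (0.07), the splicing protein DNAJC8 (0.07) and the ribosome maturation factor DNAJC21 (0.05) had smaller values in the authors' deposited table, with SEs from 0.10 to 0.16. DNAJC14, DNAJC15, DNAJC16, DNAJC18, DNAJC24, DNAJC25, DNAJC30, DNAJC11 and DNAJC4 lay between -0.12 and 0.09 in the authors' deposited table.

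HSP90AA1 rose, as the gene nearest to the limit on the called side. It codes for the inducible cytosolic HSP90 and lies on chromosome 14 from 102080738 to 102139699, minus strand, in GENCODE release 29. Its mean count was 3632 and its log2 fold change 0.14 (SE 0.05, adjusted p = 0.0420) by the authors' deposited table, which is 10.4% with an interval from 3.36% to 17.9%. WDR20 overlaps it on the other strand, at a mean count of 58.9 and a log2 fold change of -0.09 (SE 0.29). The constitutive HSP90AB1 had a mean count of 75 and a log2 fold change of 0.31 (SE 0.25, adjusted p = 0.635) by the authors' deposited table. Its wide interval, from -0.19 to 0.81, includes the value of HSP90AA1 and 0. The HSP90 co-chaperones AHSA1, which stimulates its ATPase, and STIP1, which hands it clients from HSP70, had -0.10 (SE 0.07) and -0.06 (SE 0.08) by the authors' deposited table. TRAP1, the HSP90 of mitochondria, had -0.12 (SE 0.06, adjusted p = 0.251) by the authors' deposited table. For 4 of the 5 genes of this system the interval lay within 0.25 of 0.

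Of the prefoldin subunits PFDN5 rose and the others did not pass the test, with negative values. Prefoldin is a hexamer of PFDN5 and VBP1, the alpha-type subunits, with PFDN1, PFDN2, PFDN4 and PFDN6. PFDN5, also known for binding MYC, had a mean count of 5647 and a log2 fold change of 0.23 (SE 0.05, adjusted p = 0.000355) by the authors' deposited table. This is 17.4%, with an interval from 9.30% to 26.1%, for a gene on chromosome 12 from 53295291 to 53299450, plus strand. PFDN6 stood at -0.16 (SE 0.07, adjusted p = 0.139), PFDN4 at -0.12 (SE 0.10), PFDN2 at -0.10 (SE 0.06) and PFDN1 at -0.10 (SE 0.10) by the authors' deposited table. VBP1, whose symbol lies outside the naming rule, had -0.19 (SE 0.10, adjusted p = 0.324) by the authors' deposited table. The interval of PFDN5, from 0.13 to 0.33, lay above those of PFDN6, PFDN2, PFDN4 and PFDN1, whose upper bounds ranged from -0.03 to 0.09. The difference between subunits was not tested. By mean count PFDN5 alone made up 56.4% of the 5 subunits of the naming rule.

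The TRiC chaperonin, built from 8 kinds of subunit, had 9 listed genes, of which 0 passed the authors' test and 4 had an unadjusted p under 0.05. Over all listed genes the shares past each limit were 8.11% and 17.6%, and over abundant ones 13.6% and 26.7%. CCT2 stood at -0.14 (SE 0.05, adjusted p = 0.0705) and CCT4 at -0.21 (SE 0.08, adjusted p = 0.0807) by the authors' deposited table, the nearest to the limit beside HSPE1. CCT7 had -0.09 (SE 0.04), CCT3 -0.07 (SE 0.04) and TCP1, the first subunit named, 0.02 (SE 0.05) by the authors' deposited table. CCT6A was positive at 0.18 (SE 0.08, adjusted p = 0.234) by the authors' deposited table. CCT5 (-0.09, SE 0.18), CCT8 (0.25, SE 0.27) and the testis paralogue CCT6B (-0.04, SE 0.82) were measured less precisely in the authors' deposited table. The median of the 9 was -0.07, and 7 of the 9 intervals lay within 0.5 of 0.

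The mean counts of these subunits differed far more than their fold changes. Whether such gaps lie in RNA abundance or in how reads were aligned and counted was not tested. TRiC holds its subunits in equal number, yet mean counts per kb of transcript ran from 35.4 for CCT8 and 41.8 for CCT5, through 283 for CCT6A, 684 for CCT4, 1078 for TCP1, 1885 for CCT7 and 2230 for CCT2, to 2405 for CCT3. On this per-length scale CCT3 stood 68.0-fold above CCT8. CCT6B had 6.06 per kb. Wide gaps were also seen in a pair that acts together and in a pair of paralogues. HSPE1, the lid of the mitochondrial chaperonin, had 2646 per kb against 26.8 for HSPD1, which forms its barrel, and HSP90AA1 had 1075 per kb against 28.0 for HSP90AB1. SEs of counts per kb cannot be given without values per library, and the division assumes that counts grow with transcript length, which holds for short reads and not for reads of whole transcripts. As the mean counts themselves were 72.9-fold, 38.1-fold and 48.4-fold apart in these pairs, the order is the same without it.

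Near-identical copies accompany some of the low genes. A copy was counted where a transcript of another, non-overlapping gene in GENCODE release 29 matched at 95% identity or more over at least 50% of the transcript. HSPD1 has 2, HSPD1P1 (97.4% over 1726 bases) and HSPD1P4, CCT8 has CCT8P1 (95.7% over 1658 bases) and HSP90AB1 has HSP90AB3P (97.1% over 2175 bases). Mean counts of these copies were 8.24 for HSPD1P1, 21.3 for CCT8P1 and 18.2 for HSP90AB3P in the authors' deposited table, all below those of their parents, and HSPD1P4 was not analysed here. HSP90AA1, which has a mean count of 3632, also has a copy, HSP90AA2P. CCT5 has none by this measure, but the measure could not count its pseudogene CCT5P1, listed at a mean count of 21.1. The 1618 bases of CCT5P1 are fewer than 50% of the 3675 bases of the CCT5 transcript used. The part of such copies in the levels was not tested. The fold changes of HSPD1P1, CCT8P1 and HSP90AB3P, -0.49 (SE 0.79), -0.61 (SE 0.52) and -0.00 (SE 0.60), did not pass in the authors' deposited table. The other genes that match by name alone were also low, with HSPG2 at -0.46 (SE 0.38), HSP90B2P at 0.29 (SE 0.85) and DNAJC9-AS1 at 0.03 (SE 0.76) by the authors' deposited table, all at mean counts of 35.1 or less.

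**Figure D3:**
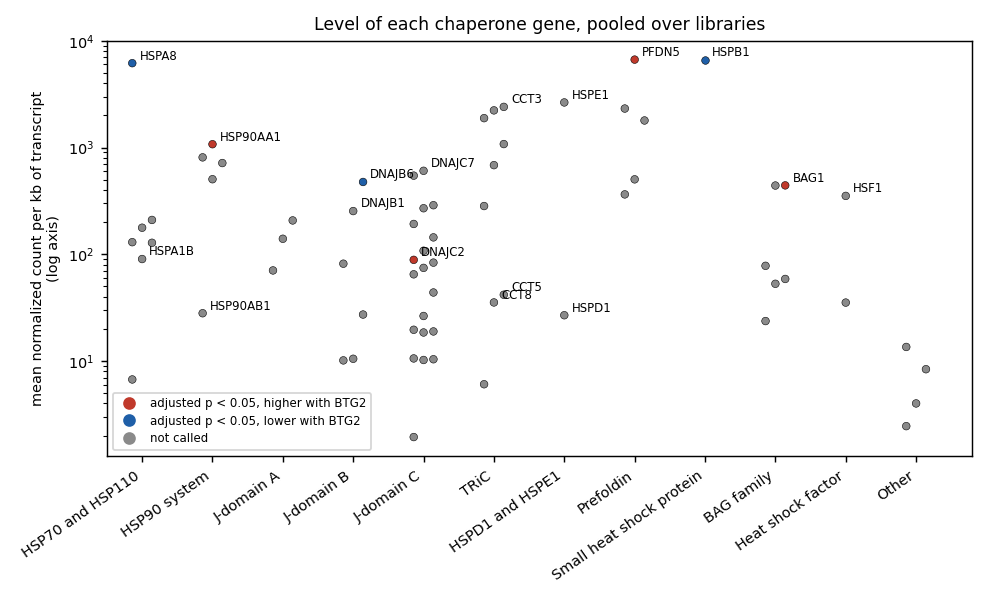
Mean normalized count from the authors, divided by transcript length in kb (y axis, log), by role (x axis), with 1 point a gene, coloured by their call. PFDN5, HSPB1 and HSPA8 lie highest, at 6668, 6621 and 6173 per kb, and HSP90AB1, HSPD1 and CCT8 lie far below HSP90AA1, HSPE1 and CCT3.

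The genes taken as mitochondrial among the 70 were HSPA9, HSPD1, HSPE1, TRAP1, DNAJA3, DNAJC4, DNAJC11, DNAJC15, DNAJC19 and DNAJC30. Of these 10 genes 0 passed the authors' test, against 8.11% of all listed genes. At that share few or no calls would fall in so small a group. The unadjusted p was under 0.05 for 3 (30.0%), all negative, against 17.6% of all listed genes and 26.7% of abundant ones. The group median was -0.08. Mitochondrial genes of the wider set that passed are given below. HSPE1 stood at -0.15 (SE 0.06, adjusted p = 0.0791) and HSPD1 at 0.09 (SE 0.29) by the authors' deposited table. The genes lie on opposite strands of chromosome 2, and in GENCODE release 29 the span of HSPE1 (197499994 to 197503457) falls inside that of HSPD1 (197486581 to 197516737). The interval of HSPE1, from -0.26 to -0.04, falls inside that of HSPD1, from -0.49 to 0.66. The part of the overlap in their levels was not tested.

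Among the BAG proteins, which release substrates from HSP70, BAG1 rose. BAG1, an exchange factor that also binds BCL2, had a mean count of 459 and a log2 fold change of 0.39 (SE 0.11, adjusted p = 0.00487) by the authors' deposited table, or 31.0% with an interval from 13.5% to 51.2%. It lies on chromosome 9 from 33247820 to 33264720, minus strand. BAG4, a silencer of death-domain receptors, had 0.27 (SE 0.13, adjusted p = 0.221) and BAG2, an inhibitor of the ubiquitin ligase CHIP, -0.27 (SE 0.14, adjusted p = 0.271) by the authors' deposited table. BAG3, which directs clients to autophagy, stood at -0.38 (SE 0.20) and BAG5 at 0.16 (SE 0.22) by the authors' deposited table. BAG6, which guards tail-anchored membrane proteins, had -0.00 (SE 0.07) at a mean count of 1665 in the authors' deposited table. The 6 genes were split into 3 positive and 3 negative values.

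**Figure D4:**
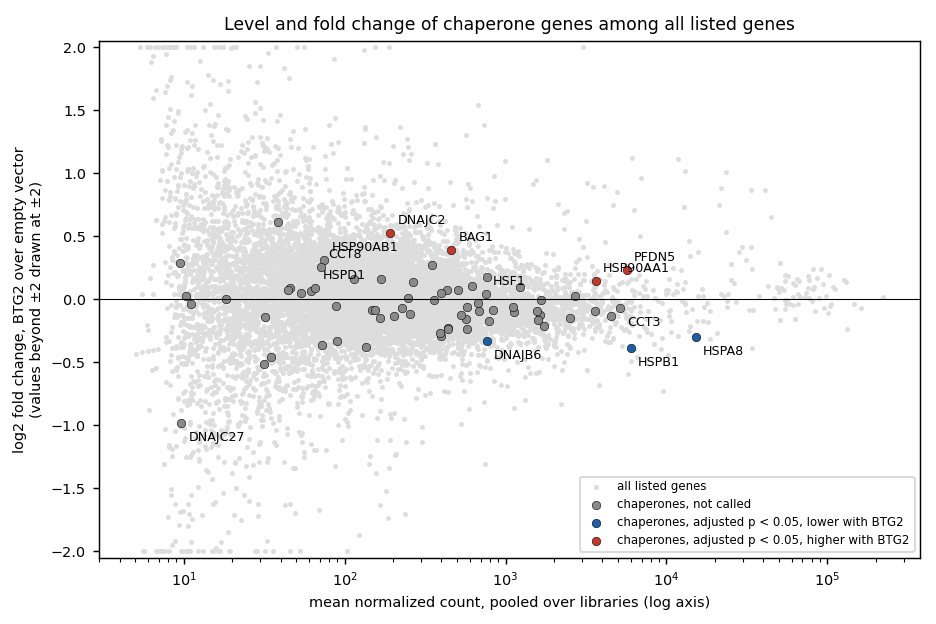
The authors' mean normalized count (x axis, log) against log2 fold change (y axis, values beyond 2 in size drawn at the edge) for all 11597 listed genes, with the 70 genes on top and coloured by their call. The 7 called genes span mean counts from 192 for DNAJC2 to 15203 for HSPA8, and none passes an absolute log2 fold change of 0.53.

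The heat shock factors did not pass the test. HSF1 had a mean count of 755 and a log2 fold change of 0.04 (SE 0.09, interval -0.13 to 0.22) and HSF2 one of -0.33 (SE 0.25) by the authors' deposited table. Of 24 textbook HSF1 targets 20 were listed, 16 of them among the 70 genes. By the authors' deposited table, 3 of the 20 were lower (HSPB1, HSPA8 and DNAJB6) and 1 higher (HSP90AA1). The lower genes, the same 3 as described above, made up 15.0% of the list against 4.47% of all listed genes. In either direction 4 of 20 passed, against 8.11%. These shares of all listed genes are not matched for abundance. The median mean count of all genes was reached by 15 of the 20, among them all 4 that passed. Among all genes of that level 441 of 5799 were lower and 13.6% passed in either direction. Of the 20 fold changes 14 were negative, with a median of -0.08. Those that did not pass ranged from -0.52 for DNAJB4 to 0.31 for HSP90AB1 in the authors' deposited table, and HSPA1B, DNAJB1 and HSPH1, at -0.07, -0.06 and -0.03, lay between. CHORDC1 and FKBP4, co-chaperones of HSP90 outside the naming rule, had 0.12 (SE 0.17) and 0.11 (SE 0.15), and CACYBP and SERPINH1 had -0.23 (SE 0.09) and -0.20 (SE 0.15), by the authors' deposited table. The list was chosen with earlier results known and was not tested as a whole.

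Of the wider set of 56 co-chaperones and mitochondrial quality control genes 54 were listed, of which the authors' deposited table has 2 higher and 1 lower (5.56%, against 8.11% of all listed genes), with a median of -0.02. The mitochondrial proteases LONP1 and CLPP rose by 0.24 (SE 0.06, adjusted p = 0.00209) and 0.58 (SE 0.16, adjusted p = 0.00765) on the log2 scale in the authors' deposited table. PAM16, a J-like subunit of the mitochondrial import motor, fell, at -0.31 (SE 0.10, adjusted p = 0.0317) by the authors' deposited table. It was not called at a limit of 0.01 or after recentring on the median abundant gene. The HSP90 co-chaperones PTGES3 and CDC37 had -0.15 (SE 0.06, adjusted p = 0.0991) and -0.09 (SE 0.05), and the HSP70 partner ST13 had -0.25 (SE 0.11), by the authors' deposited table. NACA and BTF3, which meet nascent chains at the ribosome, had mean counts of 48768 and 17955 and log2 fold changes of 0.09 (SE 0.04) and -0.03 (SE 0.04) by the authors' deposited table.

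Of the 7 chaperones of the endoplasmic reticulum that the rule leaves out, HSPA13 fell, at -0.42 (SE 0.13, adjusted p = 0.0211), by the authors' deposited table. DNAJB9 had -0.81 (SE 0.31, adjusted p = 0.0879), HSPA5 -0.24 (SE 0.15), DNAJC10 -0.17 (SE 0.15), DNAJB11 -0.08 (SE 0.13), DNAJC3 0.04 (SE 0.14) and HSP90B1 0.18 (SE 0.27) by the authors' deposited table. Their median was -0.17, against -0.06 for the 70 genes, and this difference was not tested.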

How the data were processed

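Poly(A) RNA of 4 MOLM13 libraries, 2 with BTG2 and 2 with empty vector, was compared by the authors, and their table of 11597 genes is the data used. The labels' protocols describe a directional kit and paired reads of 150 bp, whereas the series text speaks of long reads, and no source settles which was counted. The submitters' processing notes name minimap2 and hg38, without version or role. Of the comparison, the program, normalization, annotation, filter and use of strand were not given in the sources used here. The mean column is a signal, the authors' mean normalized count pooled over libraries, per the file headers. The log2 fold changes and their SEs are as deposited by the authors. The deposited test statistic is a score, the fold change over its SE. The deposited p-value is its two-sided normal tail, and the adjusted p-value is a Benjamini-Hochberg adjustment over all listed genes, within 1.48e-06.

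No label states that the replicates were separate cultures, so the spread between these libraries may be technical. The p-values rest on the deposited SEs, from 2 libraries a group, and how these were estimated is not given. Over all listed genes the SE followed mean count closely (Spearman rho -0.984). The p-values are therefore not shown to measure each gene's own spread between libraries. A call is an adjusted p, as deposited, under 0.05, and no model was refitted. The genes and lists were chosen with earlier results of these data known. Named genes are BTG2, those called, the 4 of each role with the largest test statistic, the 5 of highest mean count, HSPA1A (not analysed here), HSPA1B, HSPA8, HSP90AA1, HSP90AB1, HSF1 and DNAJB1, the 7 chaperones left out and called genes of the wider set. Others are named for their role or their pairing. Intervals are the fold change and its SE at the 95% level. Positions and transcript lengths are from GENCODE release 29 (1 transcript a gene, the APPRIS principal one where given), which holds all 70 genes. Promoters are from RefSeq on GRCh38.p14 and matched 61 of them. Copies were found with BLAST 2.17.0. The alternatives were limits on the adjusted p of 0.01 and of 0.1, a least fold change of 0.5 on the log2 scale, a test against a size of 0.25, abundant genes alone, recentring, and other readings of the naming rule. The calling steps were tested on simulated data. Computation used Python 3.11.15, numpy 2.4.6, pandas 2.3.3, scipy 1.17.1 and matplotlib 3.10.9.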

Additional observations from a re-analysis of the deposited data

How the results depend on the processing

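No paired analysis was possible because values per library were not analysed here, and for the same reason no replicate could be left out in turn. Against 7 called chaperone genes, 5 were called at an adjusted p limit of 0.01 (2 higher, since HSP90AA1 and DNAJC2 missed it, and 3 lower) and 10 at a limit of 0.1 (4 higher and 6 lower). With adjustment over abundant genes alone (mean count no lower than the median), 10 were called, 4 higher and 6 lower. CCT2, CCT4 and HSPE1 were added. Among abundant genes a larger share had an unadjusted p under 0.05 (26.7% against 17.6% of all listed genes), and the adjustment depends on such shares. A minimum absolute log2 fold change of 0.5 left 1 higher (DNAJC2) and 0 lower, and a test against a size of 0.25 on that scale left 0 in either direction, with HSPB1 nearest at an adjusted p of 0.0565. Recentring on the median abundant gene (whose -0.03 was subtracted, so that each fold change became more positive), coding genes alone and the addition of HSPBP1 and HSPBAP1 each left 4 higher and 3 lower. The median of the 70 genes, -0.06, became -0.04 on recentring. The median was -0.09 over the 48 abundant genes alone and -0.07 over the 67 coding genes alone. A mean of the 70 weighted by the inverse of the squared SE was -0.08. In the wider set 3 genes were called, against 6 at a limit of 0.1 (3 of them lower), 2 at 0.01 (0 lower, since PAM16 missed it), 1 with the minimum of 0.5 (0 lower), 0 in the test against 0.25 and, after recentring, 4 higher and 0 lower. Of 43 named genes, only HSP90AB3P changed sign, to 0.026 on recentring. These data are limited by having 2 libraries a group and by precision at low counts. Across the 70 genes SE followed mean count closely (Spearman rho -0.989, with both taken from the same libraries).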
